A study of Mus musculus with 9 samples.

Results

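DNA break repair genes are described here across cerebral cortex of wild type, Sfpq+/- and Sfpq-/- mouse embryos. The set holds 37 genes that sense, signal or mend broken DNA, and a gene was measured through the probe sets that the array's annotation gives to it alone. Of these, 35 were measured and tested among 16854 genes, through 965 kept probe sets. The other 2, Rnf8 and Xrcc2, had no probe set of their own: the 12 probe sets of Rnf8 also carry the name of 1300018I05Rik, and none is annotated to Xrcc2. Mre11a is now named Mre11, and Rad51d stands in the annotation as Rad51l3. The genes were chosen for what they do, not by how they moved, but with earlier results of these data known.

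Cortical RNA came from embryos at E13.5, 3 of each genotype, and each of the 9 samples was read on its own exon array (Affymetrix Mouse Exon 1.0 ST). Controls were wild type, Sfpq+/- embryos carried 1 mutant allele of Sfpq, and Sfpq-/- embryos were labelled as lacking it. Samples were assigned by title and genotype field, because the text on RNA extraction repeats Sfpq+/- and omits Sfpq-/-. The labels state no deleted exon, no Cre driver and no litter, so the spread behind each p-value is that among these samples alone and may be in part technical. Xist, described below, was high on some arrays and low on others in control and in Sfpq-/-, so those arrays are not all repeats of the same embryo.

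A double-strand break is first seen by the MRN complex and the kinase ATM, and chromatin around it is then marked with phosphate and ubiquitin. It is rejoined directly by non-homologous end joining, or its ends are trimmed and it is copied from the sister chromatid by homologous recombination, which needs the BRCA proteins. Progenitor cells of the embryonic cortex divide fast and use both routes, and mice without Xrcc4 or Lig4 lose newborn neurons. SFPQ is an RNA-binding and DNA-binding protein of the nucleus that has been found together with end joining factors and with RAD51D.

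Levels are log2 signals per gene, the mean of the gene's kept probe sets, and a change is a difference of group means on that scale. Gene levels are not compared with each other, because probe sets differ in brightness. Each change has the standard error (SE) or 95% interval of limma, and a gene is called changed where its p, adjusted over all 16854 genes, was under 0.05. In bulk tissue, fewer cells that express a gene and less RNA per cell cannot be told apart.

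The 12 bright probe sets of Sfpq averaged 12.07 to 12.12 on control arrays, 11.87 to 12.08 on Sfpq+/- arrays and 9.99 to 10.31 on Sfpq-/- arrays, so the Sfpq-/- labels matched the RNA while Sfpq+/- overlapped the control range. Cortex markers were present, although 4 of 9 (Neurog2, Neurod6, Lhx2 and Eomes) fell in Sfpq-/-. Of 10 markers of microglia and macrophages 7 rose, and so did 9 of 17 p53 target genes, among them Cdkn1a by 0.52 and Eda2r by 1.37. The 8 markers of the ganglionic eminence and its interneurons averaged 9.44 on control replicate 1, against 8.47 to 8.99 on the other 8 arrays, with Lhx6 at 9.14 and Gad2 at 9.54 there. Between Sfpq-/- and control 1 of the 8, Gad1, passed and rose by 0.98 (adjusted p = 0.0102). Xist, the RNA of the inactive X chromosome, read 11.79 and 11.65 on control replicates 1 and 2, 11.48 on Sfpq-/- replicate 1 and 4.90 to 5.87 on the other 6 arrays, all 3 of Sfpq+/- among them. Its level thus differed between the groups, and the part of it, or of the eminence markers, in the results below was not tested beyond the fits named there.

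Sfpq-/- replicates 2 and 3 stood apart for the repair genes, at opposite ends. The mean level of the 35 genes was 8.85, 8.79 and 8.63 on control arrays 1 to 3, 8.83, 8.83 and 8.82 on Sfpq+/- arrays, and 8.73, 8.89 and 8.47 on Sfpq-/- arrays. Sfpq-/- replicate 3 was the lowest of all 9 arrays for 25 of the 35 genes, against 22% of all genes. Control replicate 3 was the lowest for 8 of 35 (22.7% of all genes). Sfpq-/- replicate 2 was the highest array for 17 of the 35, against 24.9% of all genes.

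Many repair genes are transcribed in cycling cells under E2F factors, whose binding sites often hold TTCCCGC or TTGGCGC. The 250 bases before the start of transcription, from RefSeq on GRCm38.p6, were found for 30 of the 37 genes. On either strand, TTCCCGC stood in 9 of them (30%), against 3.8% of the promoters of 27025 genes, and TTGGCGC in 0, against 2.1%. The 27025 were all genes with a listed promoter. They were not limited to the genes tested here and not matched for base composition, so the shares are not like for like. CCAAT, the letters of the NF-Y box, stood in 14 (46.7%, against 34.5%), and TTTGAA, the letters of the CHR element of mitotic genes, in 2 (6.7%, against 16.3%). The TTCCCGC promoters were those of Mdc1, Rnf8, Rnf168, Chek2, Bard1, Brca2, Rad52, Xrcc6 and Xrcc4. In Sfpq-/- against control 5.98% of all genes were called higher and 6.12% lower, and in Sfpq-/- against Sfpq+/- 4.58% and 7.25%. At such shares few or no calls are expected among 8 genes, and none of the 8 that were measured was called in any comparison in the main fit. Some were called in alternatives given further on, among them Bard1, Rnf168 and Xrcc4 with array weights. The 4 of them whose levels are given array by array are printed with 10 bases on each side and the motif in capitals, all on the minus strand, at chr16:32277415-32277441, chr1:71103164-71103190, chr15:82016313-82016339 and chr13:90089692-90089718 in that order. The end of the motif farther from the gene's start lies 36, 208, 46 and 100 bases before that start. The strand printed is the one on which TTCCCGC reads forward, which need not be the strand of the gene.
Rnf168: tgcgtctgcgTTCCCGCctagcctgct
Bard1: gccgctcagtTTCCCGCtcaggaagtt
Xrcc6: ccactcgcatTTCCCGCttccaccccc
Xrcc4: cccgctgtgcTTCCCGCtcgctccagc
A match is a description of these letters and not evidence of a bound factor.

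The 3 genes that changed between Sfpq-/- and control are printed with the 150 bases before their start, as the stretches nearest to where their transcription begins. They lie on the minus strand at chr2:121271408-121271557 (Trp53bp1), chr11:87404507-87404656 (Rad51c) and chr4:116123691-116123840 (Rad54l). RefSeq lists 1 start for Trp53bp1 and 2 each for Rad51c and Rad54l, and the first listed was used. Capitals mark CCAAT in Rad54l, and none of the 4 motifs stood in the windows of the other two.
Trp53bp1: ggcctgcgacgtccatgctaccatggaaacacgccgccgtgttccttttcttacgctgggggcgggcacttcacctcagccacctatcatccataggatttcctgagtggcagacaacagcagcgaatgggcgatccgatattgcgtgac
Rad51c: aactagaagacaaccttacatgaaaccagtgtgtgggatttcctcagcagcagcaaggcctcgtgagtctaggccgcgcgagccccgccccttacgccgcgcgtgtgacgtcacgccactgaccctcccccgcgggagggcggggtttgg
Rad54l: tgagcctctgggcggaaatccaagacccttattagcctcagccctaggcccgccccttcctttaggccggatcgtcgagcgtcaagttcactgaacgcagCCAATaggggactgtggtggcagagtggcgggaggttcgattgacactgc

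The first comparison asked which break repair genes differ between Sfpq-/- cortex, where Sfpq RNA was lower but still read, and wild type cortex. Rad54l and Rad51c, which serve homologous recombination, were lower in Sfpq-/-, by 0.51 and 0.42 on the log2 scale. Trp53bp1, whose product shields broken ends from trimming, was 0.36 higher. The other 32 measured genes did not pass the threshold. With 1 higher and 2 lower of 35, the shares stood close to those of all genes tested, of which 5.98% were higher and 6.12% lower. The 35 changes ran from -0.51 to 0.36, with 14 above 0 and 21 below. Of all 16854 genes 9567 changes were above 0 and 7287 below, and the signs counted by role further on stand beside these. The median of the 35 was -0.07, against 0.03 for all genes. The median of the 35 turned sign in some alternatives. It was 0.09 without Sfpq-/- replicate 3 and 0.02 without control replicate 1, the array with the highest eminence markers. With all 9 arrays kept it was 0.00 with the median of probe sets in place of their mean, -0.01 with the Xist level as a covariate, -0.02 with array weights and -0.04 without the filter on dim probe sets. With a stricter filter, above the 75th percentile, it was -0.08. Of these values only that without Sfpq-/- replicate 3 moved the median by more than 0.114. That is the SD of the mean of the 35 genes over the 3 control arrays.

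**Figure D1:**
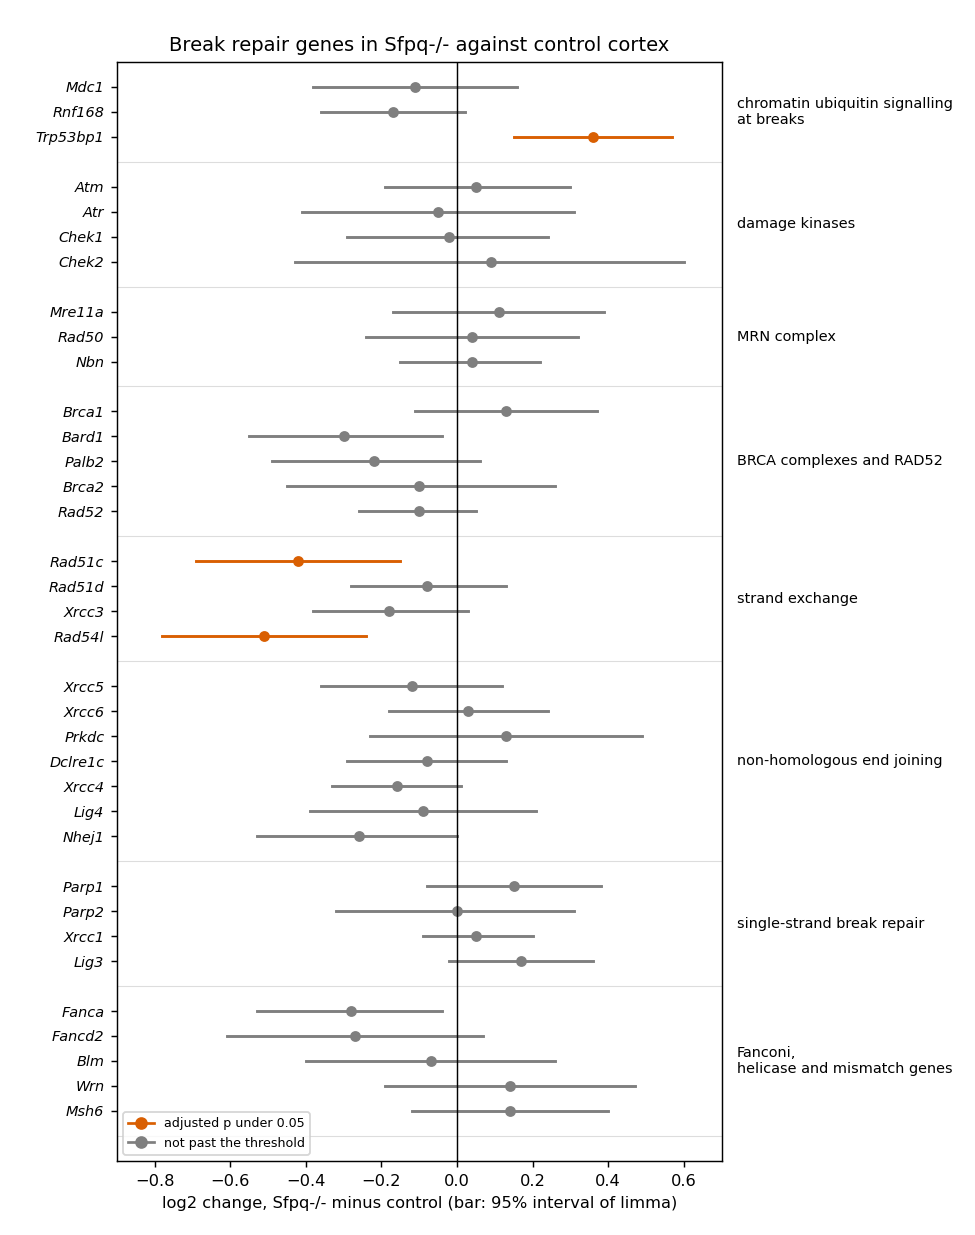
Each point is the log2 change of 1 break repair gene in Sfpq-/- against control and its bar the 95% interval of limma, for 35 genes grouped by role. Rad54l (-0.51), Rad51c (-0.42) and Trp53bp1 (0.36), in orange, passed an adjusted p of 0.05, and of the other intervals all but those of Bard1 and Fanca cross 0.

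In the chromatin signalling that follows a break, 1 of 3 measured genes rose and the other two did not pass. Trp53bp1 encodes 53BP1, which binds ubiquitin-marked chromatin and favours end joining. It stood at 10.08, 9.99 and 9.82 on the control arrays, 10.24, 10.08 and 10.19 in Sfpq+/-, and 10.24, 10.47 and 10.26 in Sfpq-/-. Every Sfpq-/- array was above every control array, and the Sfpq+/- values lay in between, 1 of them level with the highest control and 1 with the lowest Sfpq-/- array to 2 decimals. The rise in Sfpq-/- was 0.36 (SE 0.09, 95% interval 0.15 to 0.57, 1.28-fold, adjusted p = 0.0303). Leaving out control replicate 2 ended the call (adjusted p = 0.0812), as did leaving out control replicate 3 (0.114), Sfpq-/- replicate 1 (0.0562) or Sfpq-/- replicate 2 (0.0877). It was also lost with only the 2 groups in the fit (0.0702), without the filter on dim probe sets (0.0617) and with the median of probe sets (0.105), over a range of 0.0105 to 0.114 in 15 alternatives.

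Rnf168, the ligase that writes the ubiquitin mark that 53BP1 reads, read 9.22, 9.24 and 9.16 in controls, 9.28, 9.07 and 9.09 in Sfpq+/-, and 8.93, 9.14 and 9.04 in Sfpq-/-. All 3 Sfpq-/- arrays lay below all controls, yet the change of -0.17 (SE 0.08) did not pass (adjusted p = 0.257), and with the median of its probe sets it was 0.02. Mdc1, the scaffold that binds phosphorylated histone H2AX and brings in the first ligase, differed by -0.11 (SE 0.12, adjusted p = 0.664) from a control level of 9.31 ± 0.06 (SD, n = 3). The first ligase, Rnf8, was not measured.

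None of the damage kinases changed. Atm, which answers double-strand breaks, differed by 0.05 (control 9.12 ± 0.08, SD, n = 3). Atr, which answers single-stranded DNA at stalled forks, differed by -0.05 from 8.42 ± 0.18. Their effector kinases differed by -0.02 (Chek1, 9.82 to 10.15 on control arrays) and 0.09 (Chek2, control 8.36 ± 0.32). The intervals show what these arrays could resolve: Atm lay between -0.19 and 0.30, Chek1 between -0.29 and 0.24, Atr between -0.41 and 0.31, and Chek2, the least precise of the 35, between -0.43 and 0.60. The 4 adjusted p-values ran from 0.843 to 0.937.

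The MRN complex, which grips broken ends and activates ATM, gave 3 small positive changes and no call. Mre11a, the nuclease, differed by 0.11 (95% interval -0.17 to 0.39). For Rad50, the ATPase that tethers ends, the change was 0.04 (-0.24 to 0.32). Nbn, the subunit that recruits ATM, differed by 0.04 (-0.15 to 0.22) from a control level of 8.92 ± 0.07 (SD, n = 3). Control levels were 8.71 ± 0.14 for Mre11a and 8.39 ± 0.07 for Rad50.

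Among the BRCA complexes and Rad52, 4 of 5 genes had negative changes, and none was called. Bard1, the partner of BRCA1 in its ubiquitin ligase, read 8.92, 8.81 and 8.68 on control arrays, 8.87, 8.88 and 8.82 in Sfpq+/-, and 8.59, 8.71 and 8.23 in Sfpq-/-. Sfpq-/- replicate 2 overlapped control replicate 3, and the other 2 Sfpq-/- arrays were below every control. Its change of -0.30 (SE 0.12, 95% interval -0.55 to -0.04) had an adjusted p of 0.141. Brca1 itself differed by 0.13 (-0.11 to 0.37), so the 2 partners had changes of opposite sign, a difference that was not tested. Palb2, which links BRCA1 to BRCA2, differed by -0.22 (SE 0.12, adjusted p = 0.333) from 7.41 ± 0.11 (SD, n = 3). Brca2, a core factor of homologous recombination, differed by -0.10 from 8.63 ± 0.11, with a wide interval of -0.45 to 0.26. Rad52, which anneals single strands, differed by -0.10 (-0.26 to 0.05) from 8.92 ± 0.03. Brca1 had a control level of 8.45 ± 0.06.

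The group of Rad51c, Rad51d, Xrcc2, Xrcc3 and Rad54l, which act in the strand exchange of homologous recombination, held both called decreases. Rad54l encodes the motor protein RAD54, which remodels DNA during strand exchange. Its levels were 9.62, 9.65 and 9.44 in controls, 9.45, 9.57 and 9.60 in Sfpq+/-, and 9.12, 9.29 and 8.77 in Sfpq-/-. No Sfpq-/- array reached any control or Sfpq+/- array, and the 2 latter groups overlapped. Rad54l fell by 0.51 (SE 0.12, 95% interval -0.78 to -0.24, 1.43-fold lower, adjusted p = 0.0188). Leaving out control replicate 1 (adjusted p = 0.058) or control replicate 2 (0.0792) ended the call, as did a fit of only the 2 groups (0.0505). It was kept in the other 12 of 15 alternatives, over a range of 0.00066 to 0.0792.

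Rad51c, a subunit of 2 recombination complexes, read 8.81, 8.71 and 8.71 in controls, 8.56, 8.95 and 8.63 in Sfpq+/-, and 8.29, 8.54 and 8.13 in Sfpq-/-. Again no Sfpq-/- array reached a control array, but Sfpq-/- replicate 2 lay just below the lowest Sfpq+/- array. Rad51c fell by 0.42 (SE 0.12, 95% interval -0.69 to -0.15, 1.34-fold lower, adjusted p = 0.047). This was the least stable of the 3 calls. It was lost without control replicate 1 (0.122), 2 (0.111) or 3 (0.0947) and without Sfpq-/- replicate 1 (0.142) or 3 (0.105). With the median of its probe sets the change was -0.22 (adjusted p = 0.31), and over 15 alternatives the adjusted p ran from 0.00699 to 0.31, with 5 calls.

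Xrcc3, which pairs with RAD51C, read 9.15, 9.15 and 9.12 in controls, 9.25, 9.15 and 9.05 in Sfpq+/-, and 8.90, 9.15 and 8.84 in Sfpq-/-. Sfpq-/- replicate 2 equalled the controls while the other two lay below them, and the change of -0.18 (SE 0.09) did not pass (adjusted p = 0.282). Rad51d, whose product is reported to bind SFPQ, differed by -0.08 (95% interval -0.28 to 0.13) from 7.89 ± 0.07 (SD, n = 3). All 4 measured genes of this group had changes below 0. Xrcc2, the remaining gene of this group, was not measured.

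**Figure D2:**
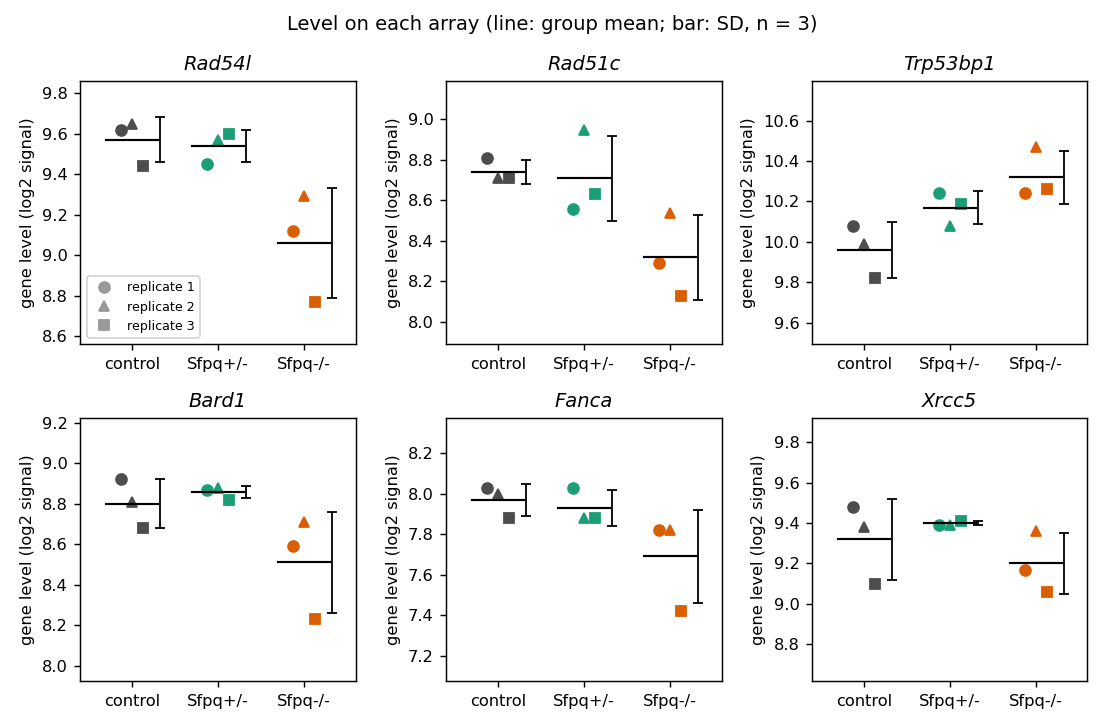
Gene level (log2 signal) of 6 break repair genes on each of the 9 arrays, with the group mean (line), SD (bar, n = 3) and replicate number (symbol). Rad54l and Rad51c are lower and Trp53bp1 higher on all 3 Sfpq-/- arrays than on any control array, while Bard1 and Xrcc5 overlap and Fanca does not.

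None of the 7 end joining genes changed between Sfpq-/- and control, although 5 had changes below 0. Nhej1, which encodes XLF, a bridge between the broken ends, read 7.85, 7.71 and 7.62 in controls, 7.70, 7.83 and 7.91 in Sfpq+/-, and 7.57, 7.64 and 7.17 in Sfpq-/-. Sfpq-/- replicate 2 overlapped control replicate 3, and replicate 3 lay far below. The change was -0.26 (SE 0.12, adjusted p = 0.214). Xrcc4, the scaffold of ligase IV, stood at 8.92, 8.82 and 8.68 in controls, 8.85, 8.96 and 8.92 in Sfpq+/-, and 8.64, 8.69 and 8.62 in Sfpq-/-. Its 3 Sfpq-/- arrays were tight, at 8.65 ± 0.04 (SD, n = 3), and touched only the lowest control, for a change of -0.16 (SE 0.08, adjusted p = 0.249).

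The Ku heterodimer, which caps broken ends, is made of the products of Xrcc5 and Xrcc6. Xrcc6, for Ku70, read 8.38, 8.43 and 8.23 in controls, 8.44, 8.53 and 8.53 in Sfpq+/-, and 8.33, 8.57 and 8.23 in Sfpq-/-. The Sfpq-/- arrays covered the whole control range, and the change was 0.03 (95% interval -0.18 to 0.24, adjusted p = 0.893). Xrcc5, for Ku80, differed by -0.12 (-0.36 to 0.12) from 9.32 ± 0.20 (SD, n = 3). Lig4, the ligase of this route, differed by -0.09 (-0.39 to 0.21) from 8.28 ± 0.18, Dclre1c, the Artemis nuclease that opens hairpin ends, by -0.08 (-0.29 to 0.13) from 7.53 ± 0.09, and Prkdc, the catalytic subunit of DNA-PK, by 0.13 (-0.23 to 0.49) from 8.21 ± 0.17.

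In single-strand break repair no gene passed, and 3 of 4 changes were above 0, as were 9567 of all 16854 genes. Lig3, the ligase that seals nicks with XRCC1, read 9.47, 9.48 and 9.31 in controls, 9.51, 9.47 and 9.49 in Sfpq+/-, and 9.61, 9.71 and 9.44 in Sfpq-/-. Sfpq-/- replicate 3 fell among the controls and the other 2 were above them, for a change of 0.17 (SE 0.09, adjusted p = 0.274). Parp1, the main sensor of nicks, differed by 0.15 (95% interval -0.08 to 0.38) from 10.03 ± 0.09 (SD, n = 3). Xrcc1, the scaffold of this route, differed by 0.05 (-0.09 to 0.20) from 9.11 ± 0.05, and Parp2, a second sensor, by 0.00 (-0.32 to 0.31) from 8.98 ± 0.23.

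The Fanconi, helicase and mismatch genes gave no call. Fanca, a subunit of the Fanconi core ligase that acts on crosslinked DNA, read 8.03, 8.0 and 7.88 in controls, 8.03, 7.88 and 7.88 in Sfpq+/-, and 7.82, 7.82 and 7.42 in Sfpq-/-. All 3 Sfpq-/- arrays were below all controls, 2 of them by a small margin, and the change was -0.28 (SE 0.11, 95% interval -0.53 to -0.04, adjusted p = 0.143). Fancd2, the target of that ligase, differed by -0.27 (SE 0.15, adjusted p = 0.333), with an SD of 0.36 in Sfpq-/- against 0.18 in controls (8.77). The helicases Blm and Wrn, both able to unwind recombination intermediates, differed by -0.07 (95% interval -0.40 to 0.26) and 0.14 (-0.19 to 0.47) from 8.92 ± 0.16 and 7.79 ± 0.29 (SD, n = 3). Msh6, a mismatch sensor, differed by 0.14 (-0.12 to 0.40) from 9.28 ± 0.19.

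Counted by overlap, 1 repair gene (Trp53bp1) lay above and 4 (Rnf168, Rad51c, Rad54l and Fanca) lay below all controls on all 3 Sfpq-/- arrays. Of all genes, 16.1% were above and 10.8% below in that way. Markers of cycling cells were read beside the repair genes. Their mean level over 9 genes was 11.22, 11.24 and 11.08 on control arrays, 11.21, 11.16 and 11.25 on Sfpq+/- arrays, and 10.97, 11.22 and 10.76 on Sfpq-/- arrays. In Sfpq-/- against control 8 of 9 changes were below 0 and none was called. Sfpq-/- replicate 3 was the lowest array for these markers, as it was for most repair genes. The next lowest mean was on Sfpq-/- replicate 1 for the markers (10.97) and on control replicate 3 for the repair genes (8.63). The part of dividing cell numbers in the changes of Rad54l, Rad51c and Bard1 was not tested, nor was that of the microglial markers in the rise of Trp53bp1. Without both replicate 3 arrays, of control and Sfpq-/-, an alternative chosen after seeing the data, Rad54l was called (-0.43, adjusted p = 0.0175) and Trp53bp1 (0.32, 0.0816) and Rad51c (-0.34, 0.162) were not.

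**Figure D3:**
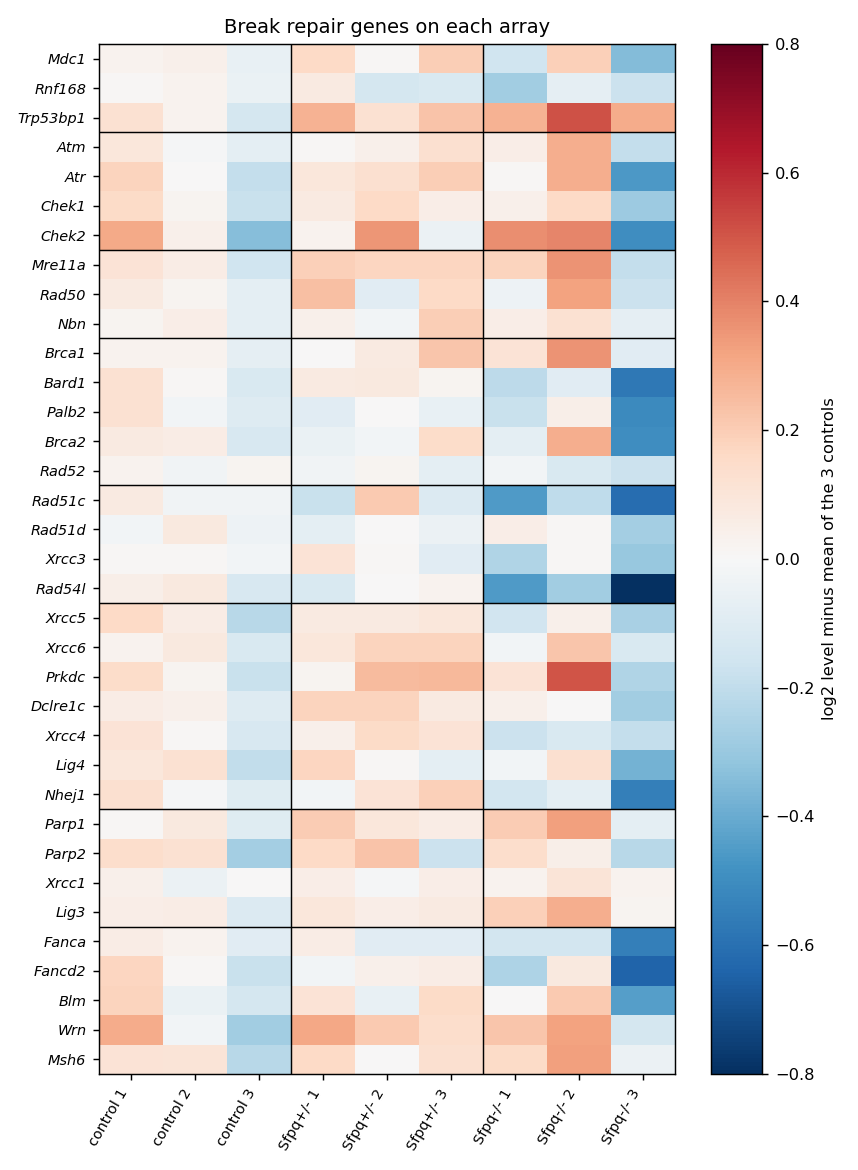
Colour gives the level of each of 35 break repair genes on each array minus the mean of the 3 controls (log2), with genes grouped by role from top to bottom. The column of Sfpq-/- replicate 3 is mostly blue, that of Sfpq-/- replicate 2 mostly red, and Rad54l and Rad51c are blue and Trp53bp1 red in all 3 Sfpq-/- columns. Some genes that were not called also keep 1 colour there, such as Bard1, Fanca and Nhej1.

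The second comparison asked whether 1 mutant allele of Sfpq was enough to move these genes. In limma 0 of 35 repair genes were called between Sfpq+/- and control, as were 0% of all genes, and the smallest adjusted p was 0.886. Without adjustment 1 repair gene and 715 of all 16854 genes had a p under 0.05. That gene was Trp53bp1, with a change of 0.21 (SE 0.09, 95% interval 0.00 to 0.42). Xrcc6 had the next smallest p, with a change of 0.15 (SE 0.10), and its 3 Sfpq+/- arrays were all above the 3 controls. The changes of the 35 genes ran from -0.06 to 0.22, with 28 above 0, beside 10322 of all 16854 genes. Their median was 0.08 against 0.03 for all genes. Xist was low on all 3 Sfpq+/- arrays and high on 2 of the 3 controls, and with its level as a covariate the median was 0.15, with no call. Without control replicate 3 the median was 0.01, and without control replicate 1 it was 0.13. For the genes that fell in Sfpq-/-, the changes were -0.03 for Rad54l (95% interval -0.30 to 0.24) and -0.03 for Rad51c (-0.30 to 0.24), so a decrease in Sfpq+/- of up to 0.30 lies within the interval.

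The third comparison set Sfpq-/- against Sfpq+/-, with the same 3 Sfpq-/- arrays as the first. Rad54l was again lower, by 0.48 (SE 0.12, 95% interval -0.75 to -0.21, 1.40-fold lower, adjusted p = 0.0247), and no other repair gene passed. Of all genes 4.58% were higher and 7.25% lower, so 0 higher and 1 lower of 35 is not above the share of all genes. The call of Rad54l was lost without Sfpq+/- replicate 2 (0.0853), Sfpq+/- replicate 3 (0.0849) or Sfpq-/- replicate 1 (0.0588) and with the median of probe sets (0.0742), within 0.00291 to 0.0853 over its alternatives. Rad51c differed by -0.39 (adjusted p = 0.0653). The change of Trp53bp1 was 0.15 (SE 0.09, adjusted p = 0.398), although its arrays did not overlap, by less than the rounding of the values above.

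End joining genes gave no call here either. All 7 changes were below 0, beside 7331 of all 16854 genes. Nhej1 was at -0.35 (adjusted p = 0.0984), Xrcc4 at -0.26 (0.0573), Dclre1c at -0.22 (0.196) and Xrcc5 at -0.20 (0.311). For each of these 4 the 3 Sfpq-/- arrays lay below the 3 Sfpq+/- arrays. So did Bard1 at -0.35 (adjusted p = 0.0857), Fanca at -0.24, Rad51c and Rad54l. These 8 genes lower and Trp53bp1 higher compare with 13.6% of all genes lower and 13.2% higher without overlap. The median change of the 35 was -0.12, against 0.03 for all genes, and it was 0.01 without Sfpq-/- replicate 3. That array also had the lowest mean of the cycling markers. Without Sfpq-/- replicate 2, the highest array, 7 repair genes were called lower in place of 1: Bard1, Fancd2, Mdc1, Nhej1, Rad51c, Rad54l and Xrcc3. The share of all genes called in that fit is not given here, so these 7 have no share to be set against.

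Exon arrays carry many probe sets per gene, so a change of a gene can be followed along it. All 25 kept probe sets of Rad54l had a change below 0 in Sfpq-/- against control, from -0.80 to -0.16 with a median of -0.53, and 19 had an unadjusted limma p under 0.05. All 35 of Trp53bp1 were above 0, from 0.11 to 0.76 with a median of 0.31, and 16 had such a p. For Rad51c 13 of 14 were below 0, from -0.89 to 0.01. Among genes that were not called, 47 of 53 were below 0 for Fanca, 44 of 49 for Fancd2, 15 of 16 for Bard1 and 6 of 6 for Nhej1, and 26 of 29 were above 0 for Parp1, 25 of 28 for Lig3 and 26 of 32 for Brca1. Probe sets of 1 gene read the same RNA samples and are no replicates.

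**Figure D4:**
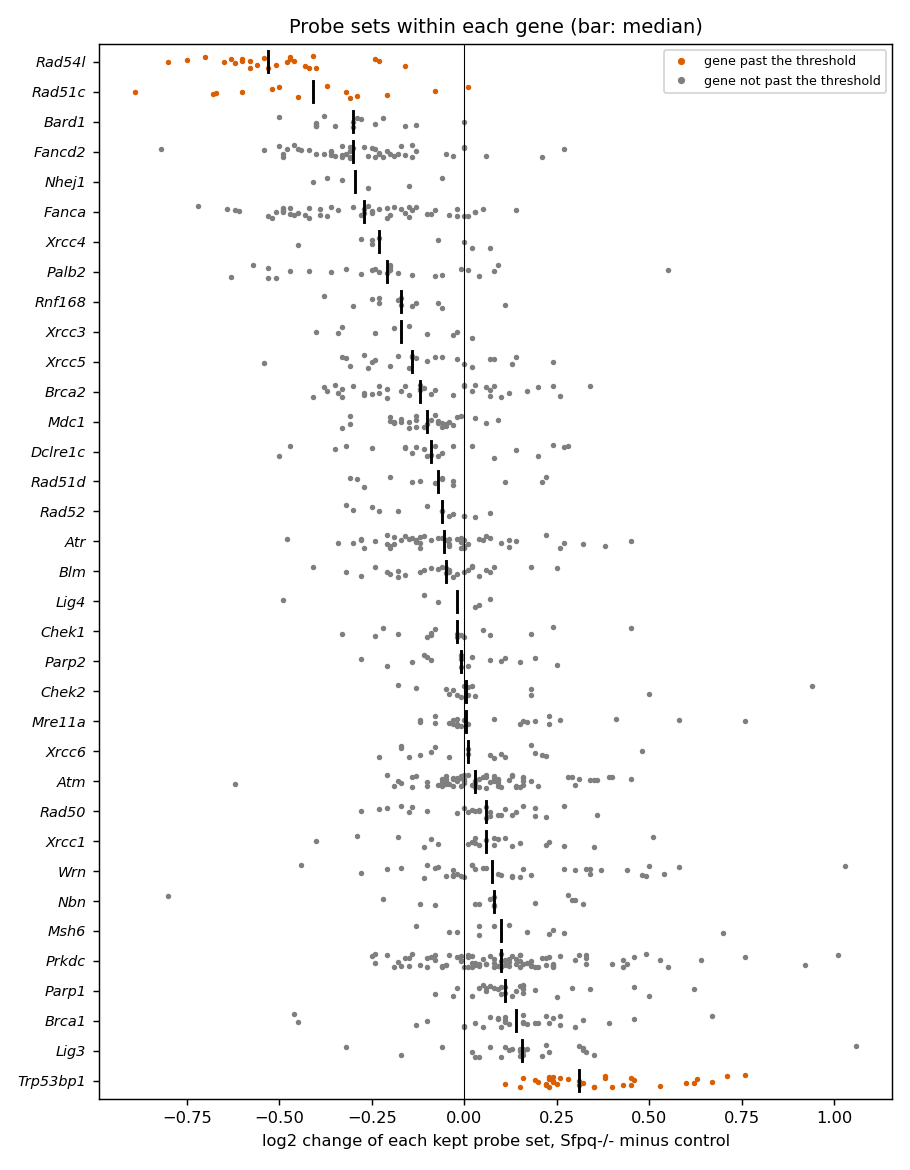
Each dot is the log2 change of 1 kept probe set in Sfpq-/- against control, with a bar at the median of the gene, for 35 break repair genes ordered by median. The 25 probe sets of Rad54l all lie left of 0 and the 35 of Trp53bp1 all right of 0, while genes such as Atr, Chek1 and Parp2 spread around it.

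Tested one by one over all 628415 kept probe sets, 4 probe sets of the repair genes passed in Sfpq-/- against control, and 1.75% of all did. They were 1 of Trp53bp1 (0.71, adjusted p = 0.0332), 1 of Rad51c (-0.68, 0.0476) and 2 of Rad54l (-0.60, 0.0417, and -0.75, 0.0491). The Trp53bp1 probe set read 8.74, 8.52 and 8.53 in controls, 8.83, 8.91 and 8.81 in Sfpq+/-, and 9.38, 9.40 and 9.14 in Sfpq-/-. Its groups did not overlap, with Sfpq+/- between the others. Leaving out any 1 control array, or Sfpq-/- replicate 1, left 0 probe sets called, and 2 were left without Sfpq-/- replicate 2. Against Sfpq+/-, 3 passed, 2 of Rad54l (-0.88 and -0.58) and 1 of Rad51c (-0.65), with 1.93% of all probe sets. Leaving out any 1 of the Sfpq+/- arrays left 0 called, and 1 was called without Sfpq-/- replicate 1 and 1 without Sfpq-/- replicate 3. Between Sfpq+/- and control limma called 0 probe sets of the repair genes and 0% of all.

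A probe set that departs from the rest of its gene can mark a change of exon use. Over 248590 probe sets, 0.926% departed in Sfpq-/- against control, and 1 of these belonged to a repair gene, Atm. It read 8.10, 8.10 and 8.12 in controls, 7.77, 7.81 and 7.96 in Sfpq+/-, and 7.62, 7.66 and 7.19 in Sfpq-/-. The controls were nearly equal, all Sfpq+/- arrays lay below them and all Sfpq-/- arrays lay below those. Relative to its gene it changed by -0.67 (SE 0.10, adjusted p = 0.0152), while Atm as a whole differed by 0.05. The call was lost without control replicate 2 or control replicate 3, which left 0 departing probe sets, and 2 departed without Sfpq-/- replicate 2 or replicate 3. Which exon it covers was not analysed here.

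Sfpq is known for its part in the transcription of long genes, so the changes were also set beside gene length. The span of each gene was taken from RefSeq on GRCm38.p6. Of the repair genes 5 span at least 100 kb, namely Trp53bp1 (101.5 kb), Wrn (151.2 kb), Nhej1 (157.9 kb), Prkdc (204.8 kb) and Xrcc4 (240.7 kb). Their changes in Sfpq-/- against control were 0.36, 0.14, -0.26, 0.13 and -0.16, with a median of 0.13, against -0.07 for all 2254 genes of that span. With 5 genes of both signs, and Trp53bp1 close to the bound of 100 kb, this median says little about long repair genes. A link between length and change was not tested. The shorter repair genes had a median of -0.08 under 20 kb (7 genes), -0.10 from 20 to 50 kb (11 genes) and -0.06 from 50 to 100 kb (12 genes), against 0.04, 0.04 and 0.03 for all genes of those spans.

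The rest of the repair machinery was read from 121 other genes in 9 lists, of which 109 were measured. Between Sfpq-/- and control 2 of them rose and 6 fell, beside the same 5.98% higher and 6.12% lower of all genes, and their median change was -0.03. Rad51b, whose product works in a complex with that of Rad51c, fell most, by 0.79 (SE 0.07, 1.73-fold lower, adjusted p = 3.7e-05). It read 7.69, 7.74 and 7.57 in controls, 7.58, 7.62 and 7.60 in Sfpq+/-, and 6.81, 6.92 and 6.90 in Sfpq-/-. The Sfpq-/- arrays lay far below the other 6, which overlapped. Brip1, the helicase that works with BRCA1, read 8.53, 8.33 and 8.25 in controls, 8.31, 8.39 and 8.44 in Sfpq+/-, and 7.84, 8.12 and 7.41 in Sfpq-/-, and fell by 0.58 (SE 0.15, adjusted p = 0.0298). Its call was lost without control replicate 1 (0.0963), control replicate 2 (0.0762) or Sfpq-/- replicate 1 (0.078).

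In the list of 53BP1 effectors and break-site ubiquitin, 1 of 12 measured genes was called lower and none higher. Of all genes 6.12% were called lower and 5.98% higher, and 7 of the 12 changes were above 0. The gene that fell was Babam2, a subunit of the BRCA1-A complex, by 0.46 (SE 0.09, adjusted p = 0.00561). It read 10.05, 10.05 and 10.01 in controls, 10.14, 10.11 and 10.04 in Sfpq+/-, and 9.61, 9.73 and 9.39 in Sfpq-/-. Of end resection and homologous recombination 2 of 23 fell (Rad51b and Brip1). Recql5, a helicase that restrains recombination, fell by 0.50 (SE 0.08, adjusted p = 0.00217), 1 of 7 in its list. It read 7.65, 7.68 and 7.53 in controls, 7.68, 7.67 and 7.54 in Sfpq+/-, and 7.03, 7.24 and 7.08 in Sfpq-/-. In Brip1, Babam2 and Recql5 no Sfpq-/- array reached any of the other 6. No gene passed among 11 of checkpoint signalling, 10 of end joining and end processing, and 13 of the Fanconi anaemia list. Leaving out any 1 control or Sfpq-/- array kept the calls of Rad51b, Babam2 and Recql5. Rad51b spans 551 kb, Babam2 387 kb, Brip1 143.1 kb and Recql5 40.9 kb. Of the 8 other repair genes of at least 100 kb 3 fell, and the median of the 8 was -0.13, against -0.07 for all genes of that span. How many of all genes of that span were called lower was not counted, so these 3 have no share to be set against. The other 3 of the 6 that fell are under 100 kb.

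**Figure D5:**
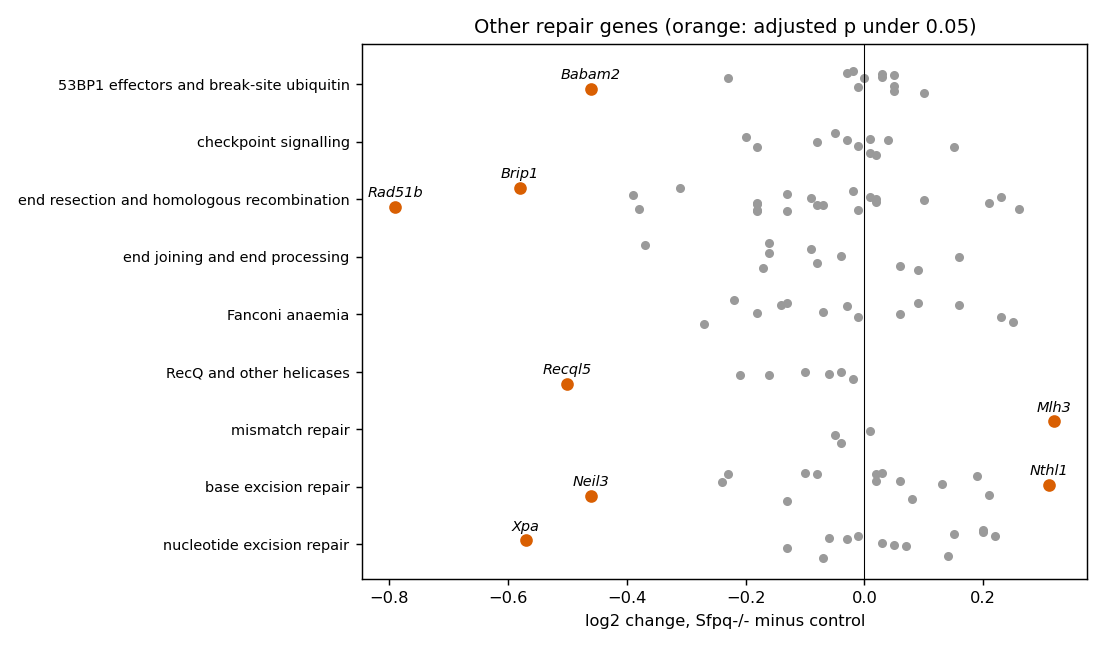
Each point is the log2 change in Sfpq-/- against control of 1 of 109 other repair genes, by list, with the 8 that passed an adjusted p of 0.05 in orange and named. Rad51b lies farthest to the left at -0.79, and Mlh3 (0.32) and Nthl1 (0.31) are the only named points to the right of 0.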

How the data were processed

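The authors deposited 1 log2 signal per probe set and array, which per the submitters' processing notes came from the software Affymetrix Expression Console (version 1.2.0.20). Their background correction, normalization, summary method or genome build was not given in the sources used here. Array medians were nearly equal (5.648 to 5.697), and nothing was normalized again. The platform annotation gave 1 gene symbol to 318760 of 1256831 probe sets, and symbols were updated through RefSeq.

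Probe sets brighter on average over 9 arrays than the median probe set (5.64) were kept, and a gene's level was the mean of at least 3. One linear model per gene over all 9 arrays, with 3 group means, was fitted by lmFit and eBayes of limma 3.58.1 under R 4.3.3, and p-values were adjusted over all genes by the Benjamini-Hochberg method, with a threshold of 0.05. Probe sets, and their deviations from their gene, were fitted in the same way. The scripts were tested on simulated data. The number of arrays limits the precision: the median SE of a gene's change was 0.096.

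The repair genes and lists were chosen with earlier results of these data known. All repair genes are named. Values by array are given for called genes, for the 10 smallest p-values in Sfpq-/- against control and for the 2 smallest in the other comparisons, together with other repair genes that passed. Alternatives changed the filter, gene summary, normalization, fit, weights, covariate and arrays. Promoters came from a RefSeq table of GRCm38.p6, matched by symbol.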

Additional observations from a re-analysis of the deposited data

How the results depend on the processing

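Precision is limited by 3 arrays a group, and no call among the repair genes survived every alternative. The number of repair genes called in Sfpq-/- against control (3 in the fit described) was 1 without the filter on dim probe sets, 1 with the median of probe sets, 0 with only the 2 groups compared, 7 with array weights (Bard1, Rnf168, Xrcc3 and Xrcc4 added), 0 to 2 when 1 array was left out, and 1 without control replicate 3 and Sfpq-/- replicate 3 together. Against Sfpq+/- (1) it was 3 with the stricter filter (mean above the 75th percentile), 0 with the median of probe sets, 2 after quantile normalization, 6 with array weights and 0 to 7 with 1 array left out. Array weights were estimated gene by gene, because the default estimate did not converge. The cause of these shifts was not tested.

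The median change of the repair genes ran from -0.129 to 0.089 against control and from -0.218 to 0.014 against Sfpq+/- when 1 array was left out. The number of all genes called in Sfpq-/- against control (2040) was 4609 with array weights and 1311 to 2453 with 1 array left out. Against Sfpq+/- (1994) it was 3635 with array weights, and its range with 1 array left out is not given here. Between Sfpq+/- and control it was 1 with the stricter filter and 0 to 1 with 1 array left out. Other repair genes called (8) numbered 5 with the median of probe sets, 5 with only the 2 groups, 23 with array weights, 5 with the Xist level as covariate, 4 to 10 with 1 array left out, and 5 without both replicate 3 arrays. The alternatives of the other repair genes and of the departing probe sets, and the fits without both replicate 3 arrays, were chosen after seeing the data.

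Repair gene probe sets called in Sfpq-/- against control (4) numbered 19 with the stricter filter and 0 to 4 with 1 array left out, and against Sfpq+/- (3) 7 and 0 to 3. Departing probe sets (1) numbered 0 to 2 with 1 array left out.

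Replicate numbers are shared by the groups, but the same-numbered arrays did not all deviate together. Over all genes the correlations of their deviations were 0.28, 0.01 and 0.57 for Sfpq-/- and control. They were 0.25, 0.05 and 0.31 for Sfpq+/- and control, and -0.06, 0.04 and 0.30 for Sfpq-/- and Sfpq+/-. The replicate 3 arrays thus had the highest same-number value in each comparison. Unlike numbers gave -0.53 to 0.36 for Sfpq-/- and control, -0.34 to 0.11 for Sfpq+/- and control, and -0.22 to 0.22 for Sfpq-/- and Sfpq+/-. Deviations from a mean of 3 arrays sum to 0, so these values are not independent of each other. The labels state no litter, and the numbers were not taken as pairs in the fit described. With the replicate block, 3 repair genes were called in Sfpq-/- against control and 3 against Sfpq+/- (Bard1 and Rad51c added to Rad54l), with 0 and 1 of their probe sets.

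Signs of changes that were not called turned in some alternatives. With the median of probe sets Rnf168 was 0.016 against control and 0.029 against Sfpq+/-. Xrcc6 in Sfpq-/- against control was -0.046 with array weights and -0.065 to 0.103 with 1 array left out. In Sfpq+/- against control, Rad51c was 0.008 with the stricter filter and with the median of probe sets, 0.024 with array weights and -0.147 to 0.049 with 1 array left out. Xrcc3 was -0.085 with the median, -0.014 after quantile normalization, 0.000 with array weights, -0.018 with the Xist covariate and -0.040 to 0.059 with 1 array left out. With the Xist covariate Rad54l was 0.066 and Fanca 0.063, and with 1 array left out Rad54l ran from -0.093 to 0.014 and Bard1 from -0.009 to 0.113.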

Other observations

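Repair of damaged bases lies outside the break repair set and gave the other called genes of the 121. In base excision repair 1 of 15 genes rose and 1 fell in Sfpq-/- against control, beside 5.98% of all genes higher and 6.12% lower. At such shares few or no calls are expected in a list of this size or smaller. Nthl1, a glycosylase for oxidised pyrimidines, read 7.25, 7.28 and 7.09 in controls, 7.18, 7.32 and 7.43 in Sfpq+/-, and 7.49, 7.53 and 7.52 in Sfpq-/-, a rise of 0.31 (SE 0.08, adjusted p = 0.0379 in limma). Neil3, a glycosylase of dividing cells, read 8.61, 8.54 and 8.43 in controls, 8.56, 8.40 and 8.59 in Sfpq+/-, and 8.15, 8.32 and 7.74 in Sfpq-/-, and fell by 0.46 (SE 0.13, adjusted p = 0.0424). In mismatch repair 1 of 4 measured genes, Mlh3, rose by 0.32 (SE 0.09, adjusted p = 0.0489). It read 8.53, 8.48 and 8.48 in controls, 8.35, 8.58 and 8.70 in Sfpq+/-, and 8.76, 8.90 and 8.79 in Sfpq-/-. In each of the 3 no Sfpq-/- array overlapped a control array. The calls of Nthl1 and Mlh3 were lost when any 1 control or Sfpq-/- array was left out (adjusted p 0.059 to 0.139 and 0.0617 to 0.146), and that of Neil3 was kept in 1 of 6 such fits (0.012 to 0.119), the one without Sfpq-/- replicate 2.

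In nucleotide excision repair 1 of 14 measured genes was called, and it was lower, beside 6.12% of all genes. Xpa, which verifies the lesion before the strand is cut, read 8.38, 8.29 and 8.40 in controls, 8.47, 8.31 and 8.23 in Sfpq+/-, and 7.89, 7.87 and 7.59 in Sfpq-/-. The groups of Sfpq-/- and control lay well apart. Xpa fell by 0.57 (SE 0.10, 1.49-fold lower, adjusted p = 0.00261) and its call was kept when any 1 array was left out (0.00445 to 0.012). It spans 21.1 kb. Against Sfpq+/- Xpa differed by -0.55 (adjusted p = 0.00306).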
